A study of Mus musculus with 18 samples.

Results

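The widest open regions of liver macrophage (LM) chromatin were taken from the single list of open regions deposited for 18 fast-ATAC-Seq libraries. Fast-ATAC-Seq uses the Tn5 transposase, which cuts and tags accessible DNA in permeabilized cells, so that sequenced fragments pile up where chromatin is open. Regions were selected on their width, the end minus the start in the list. They had to lie on chromosomes 1 to 19 and to have a width above 2 times the commonest one, so that each was at least 303 bp wide. There were 1878 such regions, called wide regions here, 2.70% of the 69499 regions in the list, and they covered 662581 bp. They were compared with the 31970 regions of exactly the commonest width, called narrow regions here, while the next wider regions began at 152 bp. Only 1 region on these chromosomes was narrower, at 45 bp. The narrow regions, 46.0% of the list, thus stood at the lower end of the widths. Because the regions were chosen by width, widths are given here as a description only. A width is where the authors' peaks began and ended, and it is not a level of accessibility.

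The libraries came from LMs of adult male C57BL/6J mice fed a high-fat, high-sucrose diet (HFHSD) for 4 weeks, with 50000 cells in each reaction. Sample titles carry the label KC, for Kupffer cells, while the paper's LMs also include macrophages derived from monocytes. There were 3 genotypes, control, Reverb-hDKO, and Reverb/Scap-hTKO, each with 3 replicates at zeitgeber time 10 (ZT10, in hours after lights on) and 3 at ZT22. Reverb-hDKO mice had floxed Rev-erbα and Rev-erbβ, Reverb/Scap-hTKO mice also had floxed Scap, and Cre came from a virus with the hepatocyte TBG promoter, whereas controls received the same kind of virus with GFP. The deletions were therefore made in hepatocytes and not in the macrophages that were measured. The list pools the genotypes and times and has no read count, score, or sample for a region, so the depth is unknown, no library has a value of its own, and neither genotypes nor times could be compared. Regions of 1 list are not replicate samples, so differences are given with intervals that cover counting error only, without p-values, and neighboring regions are not independent.

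Open chromatin at a gene start is the stretch kept free of nucleosomes by transcription factors and the transcription machinery, and many promoters, above all those of broadly expressed genes, lie in CpG islands, where CpG dinucleotides are preserved. Away from starts, open regions are mostly enhancers, which in macrophages are opened by the lineage factor PU.1 together with AP-1 and C/EBP factors, or insulators bound by CTCF. In the liver, Kupffer cells and other macrophages lie next to hepatocytes, endothelial cells, and stellate cells.

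The sequences below are from the forward strand of NCBIM37, the assembly behind mm9, and leave out annotated exons. The first pair was chosen because these were the widest region of all, at the start of Rab11fip2, and the widest between genes, with Nup210 as the nearest gene. In both, capitals mark CpG dinucleotides, of which the stretch at chr19:60019675-60019876 held 9 and the one at chr6:90938850-90939149 held 13.
Rab11fip2: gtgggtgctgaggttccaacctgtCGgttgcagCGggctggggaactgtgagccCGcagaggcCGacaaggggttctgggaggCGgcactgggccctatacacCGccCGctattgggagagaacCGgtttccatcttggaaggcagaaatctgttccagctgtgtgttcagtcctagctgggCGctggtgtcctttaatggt
Nup210: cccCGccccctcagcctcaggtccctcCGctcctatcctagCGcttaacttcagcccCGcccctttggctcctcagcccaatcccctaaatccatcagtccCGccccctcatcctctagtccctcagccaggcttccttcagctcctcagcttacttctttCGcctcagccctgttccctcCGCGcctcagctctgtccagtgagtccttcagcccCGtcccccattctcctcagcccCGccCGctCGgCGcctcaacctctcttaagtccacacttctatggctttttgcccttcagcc
The next lines show where the letters of a motif stood, for each in the widest distal or promoter region with the letters in its central 75 bp on either side of the midpoint. In the first 4, which lay more than 1000 bp from any start, capitals mark AP-1 (chr2:32738200-32738350, an intron of Fam129b), PU.1 (chr1:87792209-87792359, an intron of Itm2c), CTCF (chr10:122231623-122231773, an intron of Ppm1h), and the E-box (chr10:85736750-85736900, an intron whose nearest start is that of Timp3). In the last 3, at gene starts, they mark SP-KLF (chr15:68758671-68758821), NRF1 (chr9:99469319-99469395), and ETS (chr10:121176863-121176992). The AP-1 and PU.1 letters stand on the reverse strand. The E-box and SP-KLF examples were added after values had been seen.
Fam129b: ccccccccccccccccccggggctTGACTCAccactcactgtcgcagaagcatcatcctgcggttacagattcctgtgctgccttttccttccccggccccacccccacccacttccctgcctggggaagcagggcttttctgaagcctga
Itm2c: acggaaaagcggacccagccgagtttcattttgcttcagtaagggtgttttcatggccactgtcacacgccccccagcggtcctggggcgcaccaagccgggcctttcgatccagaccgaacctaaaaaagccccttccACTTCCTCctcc
Ppm1h: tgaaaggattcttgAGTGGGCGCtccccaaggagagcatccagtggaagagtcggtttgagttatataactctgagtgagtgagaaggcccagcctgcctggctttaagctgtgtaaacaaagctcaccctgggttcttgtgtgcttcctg
Timp3: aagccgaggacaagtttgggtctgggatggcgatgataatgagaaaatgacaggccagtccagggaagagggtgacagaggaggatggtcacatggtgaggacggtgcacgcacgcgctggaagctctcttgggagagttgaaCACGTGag
Khdrbs3: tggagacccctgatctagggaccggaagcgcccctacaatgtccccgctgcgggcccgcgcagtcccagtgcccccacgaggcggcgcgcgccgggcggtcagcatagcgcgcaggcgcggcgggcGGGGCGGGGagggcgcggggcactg
Armc8: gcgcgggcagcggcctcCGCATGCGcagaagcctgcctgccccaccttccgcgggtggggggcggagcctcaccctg
BC048403: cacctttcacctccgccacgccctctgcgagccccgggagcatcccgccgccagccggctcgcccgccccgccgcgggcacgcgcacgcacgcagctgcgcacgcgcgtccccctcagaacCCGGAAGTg
The last lines show, with CpG in capitals, the upstream or intronic parts of 3 regions at genes of the early response, sterol control, and the clock. They are Nr4a1 (chr15:101096983-101097276), Srebf1 (chr11:60034107-60034346), and Npas2 (chr1:39249591-39249890), and were also added after values had been seen.
Nr4a1: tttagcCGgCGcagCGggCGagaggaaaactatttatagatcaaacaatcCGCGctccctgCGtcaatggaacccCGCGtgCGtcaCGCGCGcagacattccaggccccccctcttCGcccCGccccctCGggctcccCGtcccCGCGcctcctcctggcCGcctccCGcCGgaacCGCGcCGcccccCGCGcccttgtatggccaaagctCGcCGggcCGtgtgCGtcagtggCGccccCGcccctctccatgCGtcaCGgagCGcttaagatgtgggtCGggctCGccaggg
Srebf1: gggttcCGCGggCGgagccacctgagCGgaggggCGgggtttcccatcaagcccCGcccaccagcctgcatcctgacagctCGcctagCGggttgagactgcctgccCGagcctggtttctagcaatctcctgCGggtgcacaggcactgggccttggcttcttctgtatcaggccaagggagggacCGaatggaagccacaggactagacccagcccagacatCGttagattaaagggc
Npas2: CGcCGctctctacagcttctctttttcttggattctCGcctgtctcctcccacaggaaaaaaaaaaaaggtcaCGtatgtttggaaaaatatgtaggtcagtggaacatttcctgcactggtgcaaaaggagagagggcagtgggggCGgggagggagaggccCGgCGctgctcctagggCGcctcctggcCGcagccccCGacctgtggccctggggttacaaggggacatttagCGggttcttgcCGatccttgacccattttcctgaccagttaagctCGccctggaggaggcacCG
The CpG count was 38 in the 294 bases at Nr4a1, 12 in the 240 at Srebf1, and 14 in the 300 at Npas2.

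Most of the wide regions were only a little wider than the boundary. Their median width was 341 bp, with a lowest value of 303, quartiles of 319 and 370, and a highest value of 744 bp. Of the 1878 regions, 782 were wider than 350 bp, 233 wider than 400 bp, and 38 wider than 500 bp. Beyond about 200 bp, counts declined with width on both sides of the boundary, and more slowly above it. Of the 287 wide regions of up to 312 bp, 41.8% lay within 1000 bp of a gene start, against 37.6% of the 505 regions from 293 bp up to the boundary, and 29.6% against 28.3% had a CpG-rich window, which is defined with the CpG content.

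**Figure D1:**
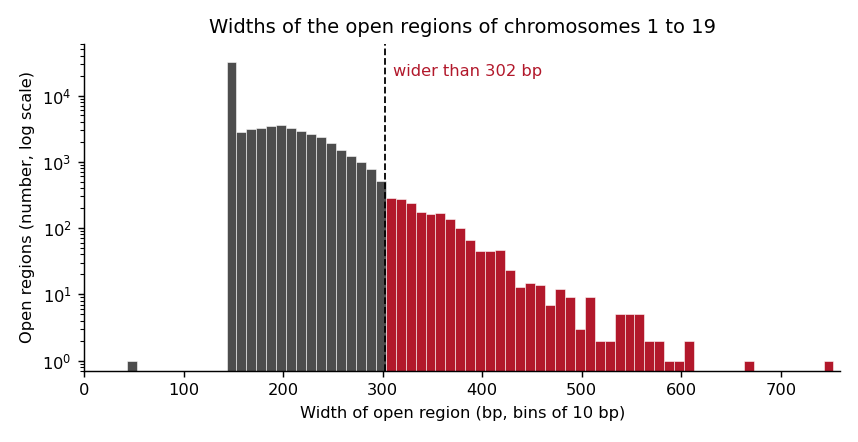
Number of open regions on chromosomes 1 to 19 by width in bins of 10 bp, on a log scale, with the 1878 wide regions in red and the others in gray. The tall bar at the left holds the 31970 narrow regions, and beyond about 200 bp the counts decline to a single region of 744 bp.

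The widest region, 744 bp at chr19:60019133-60019876, lay over the start of Rab11fip2, which encodes a partner of the endosome-recycling GTPase RAB11. It had 77.5% GC in its central window. The next, 670 bp at chr6:90938665-90939334, lay between genes, 28423 bp from the start of Nup210, a nuclear pore membrane protein. The third, 608 bp at chr11:79524356-79524963, was also between genes, with Gm11205 as the nearest gene, at 6528 bp. Of the 10 widest regions, 7 were at the start of a gene. Besides Rab11fip2, these were Atp8b1, a phospholipid flippase (607 bp), Polr1a, a core subunit of RNA polymerase I (594 bp), Mrpl4, a mitochondrial ribosomal protein (590 bp), Icosl, the ligand of the T cell costimulator ICOS (578 bp), Tmbim1 (575 bp), and Khdrbs3, an RNA-binding splicing factor (572 bp). The tenth, 570 bp, lay 20951 bp from Gprc5c. CpG-rich windows were found in 8 of the 10, and Tmbim1 and the region near Gprc5c were the exceptions.

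Gene starts held the wide regions far more often than the narrow regions. Of the 1878 wide regions, 862 (45.9%) had their midpoint within 1000 bp of the start of a protein-coding or long noncoding gene and are called promoter regions here, against 5940 of 31970 (18.6%). The difference was 27.3 percentage points (95% Newcombe interval, 25.0 to 29.6). It had the same direction on 19 of 19 chromosomes, where the share was 38.5% to 55.9% for wide regions and 14.0% to 25.4% for narrow regions. Exons held 47 wide regions (2.50% against 4.59%), introns 467 (24.9% against 40.6%), and intergenic DNA 502 (26.7% against 36.2%), and the intervals of these 3 differences were all below 0. The widest exonic region was 510 bp at Csf2ra, the α chain of the receptor for granulocyte-macrophage colony-stimulating factor (chr19:61302995-61303504), with its midpoint 1071 bp from the nearest start. The widest intronic region was 555 bp in Arid1a, a subunit of the SWI/SNF chromatin remodeler (chr4:133285530-133286084). The 1016 regions away from starts, called distal here, lay a median of 14930 bp from the nearest start (95% interval, 13368 to 16783), against 16517 bp (16171 to 16874) for distal narrow regions, and these intervals overlapped.

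The share at gene starts did not begin to climb at the boundary. It was 18.6% for narrow regions, 36.7% from 152 up to 200 bp, 39.1% above 200 up to 250 bp, and 39.2% above 250 bp up to the boundary. Among wide regions it was 41.9% of 1096 regions of up to 350 bp, 50.1% of 549 regions above 350 up to 400 bp, and 54.9% of 233 wider ones. Most of the difference lay between the narrow regions and all others. Against the 34684 regions of intermediate width, from 152 bp up to the boundary, a comparison added after values had been seen, the difference was 7.90 points (5.60 to 10.2), and against those above 250 bp up to the boundary it was 6.69 points (4.09 to 9.29).

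**Figure D2:**
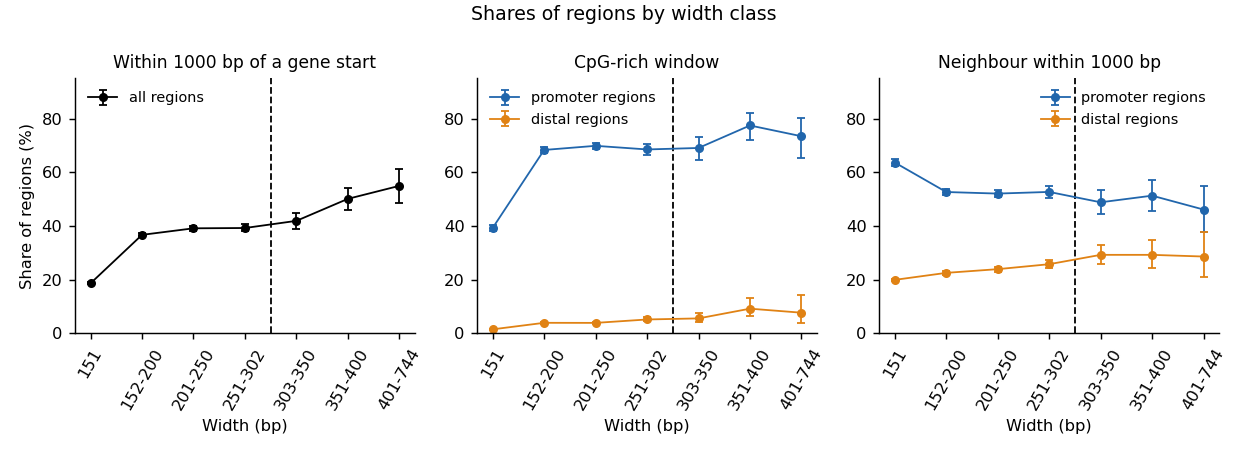
Share of regions (%) within 1000 bp of a gene start (left), with a CpG-rich window (middle), and with the midpoint of another open region within 1000 bp (right), by width class in bp. Bars are 95% Wilson intervals and the dashed line is the boundary above which regions were chosen. The share at starts is 18.6% for narrow regions and 54.9% above 400 bp, and the share with a neighbor is lower for wider regions than for narrow ones at promoters (blue) but higher for wider than for narrow distal regions (orange).

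Wide promoter regions lay over the start itself more often than narrow ones. Among regions within 1000 bp of a protein-coding start (840 wide and 5611 narrow regions), the midpoint was within 100 bp of the start in 53.3% of the wide and 25.1% of the narrow regions, a difference of 28.3 points (24.7 to 31.8). To keep the width out of the comparison, only the central window of each region, 75 bp on either side of the midpoint, was asked to contain a start. It did so in 356 wide regions (42.4%) and 1138 of the narrow regions (20.3%), a difference of 22.1 points (18.6 to 25.6). Over their whole width, 70.1% of the wide regions contained a start. The midpoint was upstream of the start in 65.4% of the wide regions and 43.6% of the narrow regions, with a median of -47 bp (-56 to -34) against 40 bp (28 to 52), where positive values are downstream. Starts of coding genes on both strands lay within 1000 bp of 9.76% of the wide and 6.04% of the narrow promoter regions, 3.72 points apart (1.78 to 5.99). All of these are differences from the narrow regions, and values for regions of intermediate width are not given here.

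**Figure D3:**
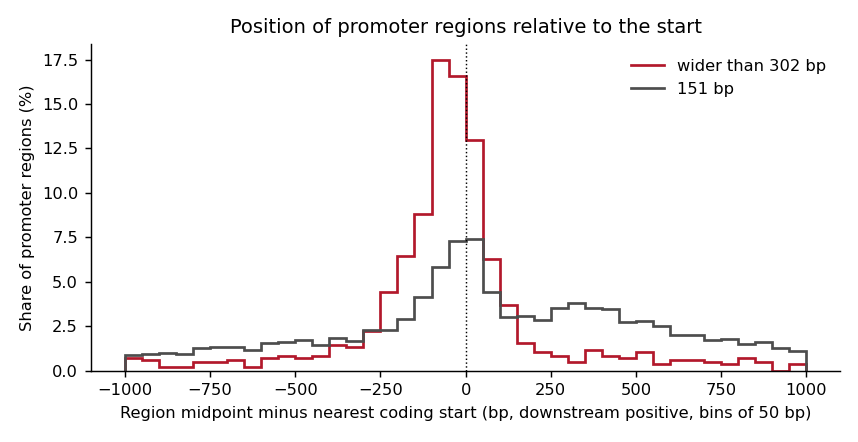
Position of the region midpoint relative to the nearest protein-coding start, in bp along the gene with downstream positive, as a share (%) of the 840 wide regions (red) and the 5611 narrow regions (gray) in bins of 50 bp. The wide regions pile up just upstream of the start, with 17.5% in the bin from 100 to 50 bp upstream, while the narrow regions have a lower peak and a broad shoulder downstream.

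Wide regions also lay in CpG-rich DNA more often. A window of 250 bp on either side of the midpoint, the same for both groups, was called CpG-rich when its GC content was above 50% and its ratio of observed to expected CpG above 0.6. This held for 692 wide regions (36.8%) and 2698 of the narrow regions (8.44%), a difference of 28.4 points (26.2 to 30.6), again in the same direction on 19 of 19 chromosomes. Among promoter regions the share was 72.4% against 39.2% (33.2 points, 29.8 to 36.3), and among distal regions 6.69% against 1.41% (5.28 points, 3.89 to 6.99). Apart from the narrow regions the share at promoters was between 68.3% and 77.5% in every width class, and against regions above 250 bp up to the boundary the wide promoter regions were 3.88 points higher (0.238 to 7.39). Against regions of those same widths, the wide distal regions were 1.60 points higher (0.00218 to 3.44). Over all locations the difference was 6.89 points there (4.41 to 9.40), and 8.15 points (5.94 to 10.4) against all regions of intermediate width.

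The median GC content of the central window was 65.6% (95% interval, 64.9 to 66.9) in wide promoter regions against 57.6% (57.6 to 58.3) in narrow promoter regions, and 53.6% (53.0 to 54.3) against 50.3% in distal ones. The median ratio of observed to expected CpG there was 0.784 against 0.496 at promoters and 0.265 against 0.205 in distal regions. When promoters were split by CpG content, the wide regions were still higher in GC, at 68.9% against 66.9% in CpG-rich promoters and 57.0% against 53.6% in the others. The flanks differed less. In wide promoter regions, mean GC in the central window stood 10.1 points above that more than 400 bp from the midpoint, and in narrow ones 4.30 points, with 5.89 against 3.77 points in distal regions. Over all locations, the median GC of the central window was 50.993% in narrow and 57.616% in wide regions. It was 54.967% from 293 bp up to the boundary and 56.291% in wide regions of up to 312 bp. Regions just below the boundary thus already stood above the narrow regions. For intermediate widths, median GC split by location and CpG ratios are not given here.

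**Figure D4:**
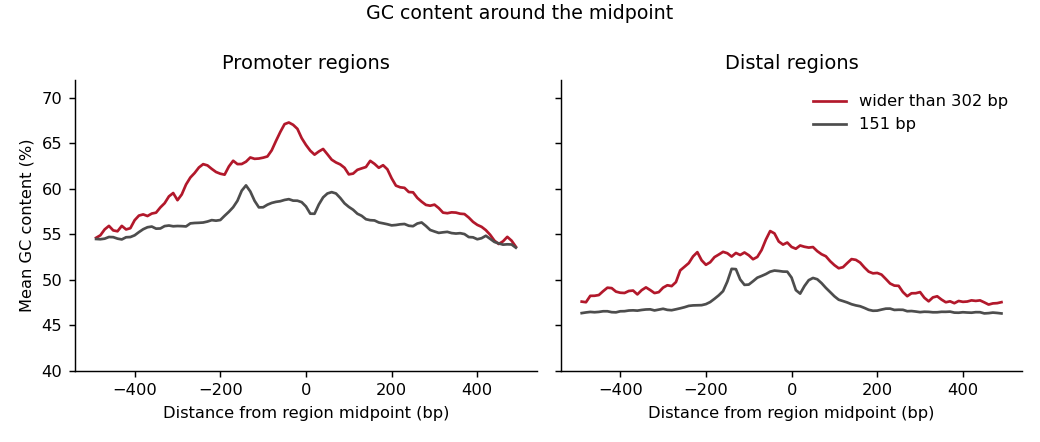
Mean GC content (%) by distance from the region midpoint in bp along the forward strand, averaged over 21 bp, for promoter regions (left) and distal regions (right), with wide regions in red and narrow regions in gray. GC is higher around the center of the wide regions and nears that of the narrow regions 500 bp away, and the peaks of the gray curves are not symmetric about 0.

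Sites of several motifs were also not centered on the midpoints. In distal narrow regions, the 1782 PU.1 sites within 150 bp of the midpoint lay a median of 28 bp toward lower coordinates (median position -28, 95% interval -32 to -25), the 3067 AP-1 sites at -23 (-27 to -20), and the 851 CTCF sites at -35 (-40 to -28), on the forward strand and regardless of any gene's direction. SP-KLF sites in distal narrow regions lay the other way, at 34.5 (17 to 45, 470 sites). For SRE, NRF1, NFY, and YY1 sites the intervals included 0. The wide regions had 63 CTCF sites at a median of -58 (-72 to -13), and their AP-1 sites (-8, -37 to 19) and PU.1 sites (26.5, -37 to 44) had intervals that included 0. The cause of this was not tested. Moving every midpoint 40 bp toward lower coordinates, a change chosen after this had been seen, left the difference in promoter share at 27.1 points, in CpG-rich windows at 28.9, in starts within the central window at 21.4, and in midpoints upstream of the start at 22.0.

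Open regions are often close to each other, and here the difference between wide and narrow regions was not the same at promoters and in other places. Another region's midpoint was within 1000 bp of 720 wide regions (38.3%) and of 8952 of the narrow regions (28.0%), a difference of 10.3 points (8.11 to 12.6). Within 500 bp the difference was 2.31 points (0.565 to 4.18). At promoters the direction was the opposite, 49.2% against 63.6% (-14.4 points, -18.0 to -10.9), with 17 of 19 chromosomes in that direction. There the narrow regions stood apart. The promoter share was 52.6% from 152 up to 200 bp, 52.05% above 200 up to 250 bp, and 52.7% above 250 bp up to the boundary. In distal DNA the wide regions had a neighbor in 29.1% and the narrow regions in 19.9% (9.26 points, 6.51 to 12.2). In all these counts, a wide region itself fills more of the distance around its midpoint than a narrow one. Where regions do not overlap, less room is then left for a neighbor, and the effect of this on the shares was not tested. Of the 5940 narrow promoter regions, 52.0% had a wider open region within 1000 bp. That share follows in part from the choice by width, since nearly every region of another width is wider than these. Wide regions seldom came in pairs, and 13 pairs of neighboring wide regions had midpoints within 1000 bp. The closest pair, of 346 bp (chr16:98143707-98144052) and 359 bp (chr16:98144104-98144462), lay on either side of a gap of 51 bp at the start of C2cd2. Counted over genes extended by 1000 bp, Gm20388 held the most (9), followed by Zmiz1, a coactivator of nuclear receptors and SMADs, and Fgfr2, a fibroblast growth factor receptor, with 4 each. The annotated spans of Gm20388 (4434.9 kb, 415 open regions) and Fgfr2 (3009.1 kb, 119 open regions) are the longest of these 3. Zmiz1 spans 207.56 kb and had 43 open regions. For comparison, 2.74% of all regions on chromosomes 1 to 19 were wide. The genes named here were picked for their number of wide regions, so no excess over that share can be read from them. Another 9 genes had 3 wide regions each, among them Pxn (of 13 open regions), Coro2a (of 13), Dpp4 (of 5), and Capzb (of 16). The spans of Dpp4 and of Gm13561, also among these 9, overlap, so a region can be counted for both.

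The letters of 13 transcription factor motifs were then searched on both strands of the central window. They were TGAGTCA for AP-1, GAGGAAGT for PU.1, CCGGAAGT for other ETS factors, AGNNGGCGC for CTCF, TTNNGCAA for C/EBP (CEBP), CAAAGTCCA for HNF4, CACGTG for the E-box of CLOCK, BMAL1, and MYC, NTAGGTCA for the RORE read by REV-ERBs and RORs, TCACNCCAC for the SRE of SREBPs, CGCATGCG for NRF1, GGGGCGGGG for SP and KLF factors, CCAATNAG for NFY, and AAGATGGCG for YY1. The PU.1 and ETS letters share GGAAGT but cannot match at the same place. Over all 68533 regions, 8.82% held the CEBP letters, 5.70% AP-1, 5.01% the E-box, 3.95% CTCF, 3.57% SP-KLF, 3.35% PU.1, 2.99% NFY, 2.05% RORE, 1.38% ETS, 0.824% HNF4, 0.724% SRE, 0.573% NRF1, and 0.414% YY1. A match is a description of the letters and not a bound site.

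At promoters, SP-KLF letters stood out in the wide regions. They were present in 139 of 862 wide promoter regions (16.1%) and 261 of 5940 narrow ones (4.39%), a difference of 11.7 points (9.36 to 14.4) with the same direction on 19 of 19 chromosomes. ETS letters followed, at 4.18% against 0.926% (3.25 points, 2.07 to 4.82), then NFY at 4.87% against 1.87% (3.0 points, 1.70 to 4.68), and NRF1 at 2.32% against 0.421% (1.90 points, 1.06 to 3.14). By chromosome, ETS was higher on 17 and lower on 2, and NFY was higher on 12 and lower on 7. CTCF, the E-box (higher on 15 chromosomes, lower on 4), and YY1 were also higher, and none of the 13 was lower than in narrow regions with an interval below 0. All of these letters except those of NFY contain a CpG, and CpG-rich promoters were therefore compared on their own, a comparison added after values had been seen. There, SP-KLF was still at 20.2% against 8.24%, ETS at 5.61% against 1.5%, NFY at 4.33% against 1.46%, and NRF1 at 3.04% against 0.730%, but CTCF was at 8.65% against 8.80%, with an interval of -2.45 to 2.55 points. Against promoter regions above 250 bp up to the boundary, only SP-KLF was higher among the 13 (16.1% against 12.8%, 3.31 points, 0.567 to 6.25). Against all promoter regions of intermediate width, SP-KLF was again higher (4.23 points, 1.86 to 6.89), but NFY was lower in the wide regions, at 4.87% against 7.01% (-2.14 points, -3.46 to -0.437).

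In distal regions, the differences in macrophage motifs between wide and narrow regions had intervals that included 0. AP-1 letters were found in 69 of 1016 wide distal regions (6.79%) and 6.57% of 26030 narrow distal regions (0.226 points, -1.20 to 1.97). PU.1 letters were found in 3.84% against 4.2% (-0.364 points, -1.41 to 1.02), CEBP in 9.84% against 8.85% (0.995 points, -0.724 to 3.01), and CTCF in 2.46% against 1.94% (0.524 points, -0.283 to 1.68). RORE letters, those of the receptors deleted in the hepatocytes, were in 29 wide distal regions (2.85% against 2.16%, 0.699 points, -0.180 to 1.93), and SRE letters in 10 (0.984% against 0.722%, 0.262 points, -0.200 to 1.09). The hepatocyte factor HNF4 had its letters in 12 (1.18% against 0.830%). Higher in the wide distal regions were SP-KLF (2.56% against 0.699%, 1.86 points, 1.05 to 3.03), the E-box (5.91% against 3.95%, 1.95 points, 0.639 to 3.59), and NFY (2.85% against 1.77%, 1.08 points, 0.207 to 2.31). By chromosome, SP-KLF was higher on 14 and lower on 5, the E-box higher on 13 and lower on 6, and NFY higher on 11 and lower on 8. With the midpoints moved by 40 bp, NFY was no longer higher in distal regions (0.642 points, -0.162 to 1.79). Against distal regions above 250 bp up to the boundary, SP-KLF stayed higher (1.25 points, 0.324 to 2.46), while the E-box (-0.133 points, -1.69 to 1.66) and NFY (0.903 points, -0.109 to 2.19) had intervals that included 0. In that comparison 2 motifs were lower in the wide regions, CTCF at 2.46% against 4.64% (-2.17 points, -3.28 to -0.848) and CEBP at 9.84% against 12.2% (-2.33 points, -4.37 to -0.0678). Against all distal regions of intermediate width, the calls were the same for these 5 motifs, with CEBP at -2.19 points (-3.93 to -0.161) and CTCF at -1.28 points (-2.11 to -0.110).

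**Figure D5:**
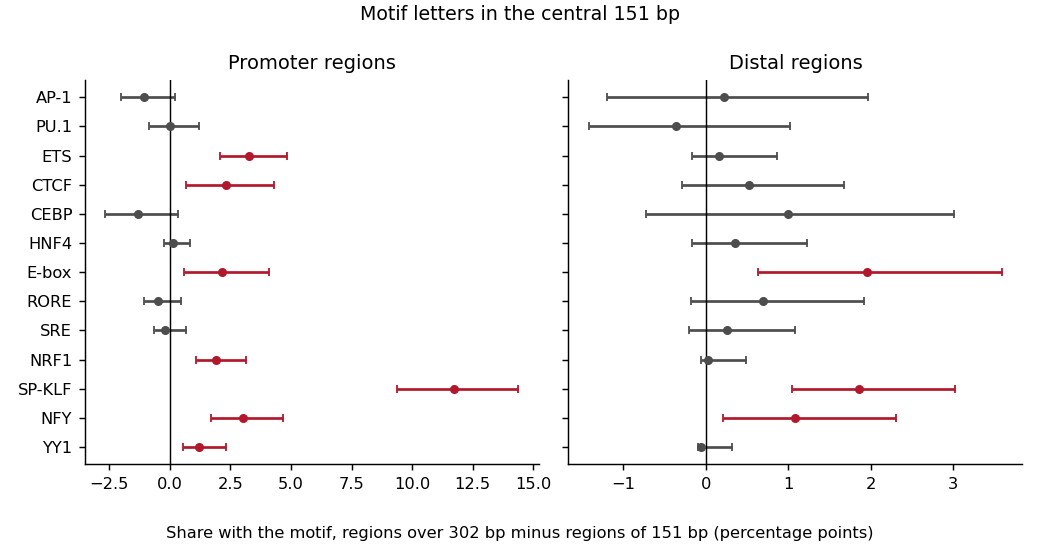
Difference in the share of regions with the letters of each motif in the central window, wide regions minus narrow regions in percentage points, for promoter regions (left) and distal regions (right), on separate scales. Bars are 95% Newcombe intervals, red where they leave out 0, and SP-KLF is farthest from 0 at promoters (11.7 points) while AP-1, PU.1, CEBP, and CTCF include 0 in distal regions.

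Wide promoter regions lay at the starts of many genes. A wide region lay within 1000 bp of a start of 912 of 21418 protein-coding genes (4.26%). Any open region lay there for 12352 genes (57.7%), of which 7.38% had a wide one, and these shares are the background for the lists below. In 11 lists of 20 genes each, written by hand, the number with a wide region went from 0 to 3.

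Of 20 genes of the core clock and its output, all had an open start and 2 had a wide region. These were Npas2, a partner of BMAL1 (418 bp, 776 bp upstream of the nearest start), and Tef, a PAR bZIP factor of clock output (352 bp, with the start of the noncoding Gm17597 nearer to its midpoint). Nr1d1 and Nr1d2, which encode REV-ERBα and REV-ERBβ, had regions of at most 202 and 208 bp, and Arntl, which encodes BMAL1, one of 197 bp. Of 19 genes of sterol and fatty acid synthesis, all open, 3 had a wide region, Srebf1, the precursor of SREBP-1 (341 bp, 70 bp upstream of a start), Pmvk, phosphomevalonate kinase (319 bp), and Insig1, which holds SCAP in the endoplasmic reticulum (308 bp, 659 bp downstream of the start). Scap, at 300 bp, fell just short.

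Of 20 macrophage transcription factors, 19 had an open start and 1 a wide region. Spi1, which encodes PU.1, had a region of 268 bp and Cebpb one of 285 bp. Of 20 AP-1 and immediate early genes, 19 were open and 2 had a wide region, the nuclear receptor Nr4a1 (379 bp) and the stress-induced Atf3 (353 bp), 105 and 112 bp upstream of their starts. Of 20 cytosolic ribosomal protein genes, all open, 2 had one, among them Rpl4 (350 bp, shared with the opposite gene Zwilch). Of the 20 nuclear-encoded genes of oxidative phosphorylation, all open, 0 had one, and their median widest region was 221.5 bp against 213 bp over all open coding genes.

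The lists of cell types were counted beside the KC label of the samples, and their open starts did not single out macrophages. Of all coding genes, 57.7% had an open start. Of 19 Kupffer cell and macrophage genes on these chromosomes, 12 had an open start, among them Clec4f, Timd4, Cd5l, and C1qa, and 0 a wide region, and the widest there were at Mertk (271 bp), C1qc, and Cd68 (270 bp each). Csf1r, Marco, Folr2, Lyz2, Mpeg1, Cd163, and Fcgr1 had no listed region within 1000 bp of a start. Of 20 hepatocyte genes, 19 were open, Alb and Apob included, and 0 had a wide region. Of 20 liver endothelial genes, 17 were open and 1, the receptor Tie1, had a wide region (383 bp). Of 20 hepatic stellate genes 5 were open, and of 20 neuron and muscle genes 3, with 0 wide regions in both. How much of the list comes from cells other than macrophages was not tested, and it has no level that could show this.

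Wide regions were found on every chromosome. They made up 2.37% of the regions of chromosome 1 and 3.14% of those of chromosome 17, the lowest and highest shares. Sequence repeated exactly was rare among them, and only exact copies were counted. In 3 of the 1878 (0.160%) the 31-base words of the central window had a median of 2 or more copies in the genome, against 125 of the narrow regions (0.391%), and the interval of the difference included 0 (-0.360 to 0.0839 points).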

How the data were processed

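Per the labels and methods, the authors removed adapters from the reads of 18 libraries, used Bowtie to place them on mm9, joined the alignments of replicates, and called open regions from these with the Kundaje laboratory's ATAC-Seq pipeline. HOMER is named for read counts, and the submitters' processing notes also name mm9, Bowtie, and HOMER. The peak caller, its threshold, any shift of the reads, and the way regions were joined are not given in the sources used here. The deposited list gives only where each region starts and ends, with no count or score, so that depth is unknown.

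The commonest width was 151 bp, so wide regions were those above 302 bp. Regions on chromosomes 1 to 19 were placed on NCBIM37 with the GENCODE annotation of 37310 genes, of which 26225 protein-coding and lncRNA genes were used. No region ran past a chromosome end. Positions are printed from 1. Shares have 95% Wilson intervals, differences Newcombe intervals, and medians order-statistic intervals. CpG content was taken over 501 bp and motifs, as exact letters, over the central 151 bp. Older gene symbols were matched through RefSeq names, and Hmgcs1 was not matched. Named are the 10 widest regions, the widest in each location and at each listed gene, the genes with most wide regions, and the closest pair. Some items named by this rule are not reported here. The members and lists were chosen with earlier results of these data known. The shares, intervals, and motif search were tested on simulated data. Alternatives changed the width boundary, the distances, the window, the compared regions, and the chromosomes used. Python 3.11.15, NumPy 2.4.6, SciPy 1.17.1, numba 0.67.0, and matplotlib 3.10.9 were used.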

Additional observations from a re-analysis of the deposited data

Results flagged for a closer look

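Wide regions, by the same boundary, also stood outside the chromosomes that were compared. Chromosome X had 20 among its 825 open regions (2.42%, 95% Wilson interval 1.57 to 3.71), against 2.74% on chromosomes 1 to 19, and the widest was 442 bp. The random and unplaced sequences had 5 among 136 (3.68%, 1.58 to 8.32), the widest of 364 bp. Both intervals included the share of chromosomes 1 to 19. The 4 regions of chromosome Y and the 1 mitochondrial region had none.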

How the results depend on the processing

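No paired analysis was possible because no value of a single library was at hand, so that the shared replicate numbers could not be used. The share at gene starts, CpG-rich windows, and starts within the central window kept their direction and an interval without 0 under every alternative run for them. Leaving out 1 chromosome gave 26.9 to 27.7 points for gene starts, 28.1 to 28.9 for CpG-rich windows, and 9.66 to 10.9 for neighbors. The difference in neighbors was 2.31 points within 500 bp, 2.06 points against regions above 250 bp up to the boundary, with an interval including 0, and reversed to -14.4 points at promoters. Among the 13 motifs, 7 were higher and 1 lower in wide regions as reported. The number higher was 4 above 400 bp, 1 against all regions of intermediate width or only those above 250 bp, 13 over the whole region, where wide regions hold more letters, 3 in distal regions or outside CpG-rich windows, and 2 in distal regions with moved midpoints. The number lower was 2 above 250 bp, 3 with only the widest of neighbors or with moved midpoints, 0 over the whole region, in distal, promoter, or CpG-rich promoter regions, outside CpG-rich windows, and in distal regions with moved midpoints, and 1 to 2 without 1 chromosome. AP-1 reversed to 3.52 points over the whole region, 0.226 in distal regions, and 0.145 outside CpG-rich windows. CTCF reversed to -0.550 against regions of intermediate width, -1.19 against those of them above 250 bp, and -0.144 in CpG-rich promoters. Against intermediate regions above 250 bp the E-box was at -0.184 and NRF1 at -0.0127, and against all of intermediate width NFY was at -0.273. CEBP was lower with an interval below 0 against all regions of intermediate width (-2.05 points, -3.19 to -0.746) and against those above 250 bp (-1.81, -3.17 to -0.340). ETS was at -0.00544 outside CpG-rich windows, and YY1 at -0.0576 in distal regions, -0.0615 outside CpG-rich windows, and -0.0884 in distal regions with moved midpoints. With a boundary of 250 bp, 2998 coding genes had a wide region near a start. Apart from the whole-region counts, the causes were not tested. A list without signal cannot show weakly open regions or how open a wide region was.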

Other observations

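Gene families, chosen after values had been seen, were counted beside the 4.26% of all coding genes with a wide region near a start and the 7.38% of those with an open start. Zinc finger genes named Zfp had one in 23 of 362 (8.33% of the 276 open), among them Zfp148 and Zfp384. Solute carriers had one in 19 of 343 (9.0% of the 211 open), among them the glucose transporters Slc2a2 and Slc2a4 and the bile acid ligase Slc27a5. Mitochondrial ribosomal proteins had one in 6 of 77 (8.00% of the 75 open) and cytosolic ribosomal proteins in 3 of 72 (4.35% of the 69 open). Proteasome genes had one in 2 of 51 (4.26% of the 47 open), complex I genes in 1 of 41 (2.56% of the 39 open), cytochrome P450 genes in 3 of 98 (7.5% of the 40 open), and histone genes in 1 of 66 (1.85% of the 54 open). Of 1106 olfactory receptor genes, 7 had an open start and 0 a wide region. None of these shares was tested.

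The GC profile and the site positions of several motifs were not symmetric about the midpoints of the narrow regions, with HNF4 sites at a median of -31 bp (-39 to -24, 336 sites) and RORE sites at -18 bp (-25 to -12, 1118 sites) beside those given above. At protein-coding starts, the wide regions had a median offset of -28 bp (-47 to -14) for genes on the forward strand and -64 bp (-74 to -49) for those on the reverse strand. With the midpoints moved by 40 bp toward lower coordinates, these medians were -54 bp and -30.5 bp.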
